A study of Mus musculus with 4 samples.

Results

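The regions described here are the replication initiation zones that lie on mouse chromosomes 11 and 19. They were chosen by chromosome name from both lists of zones: 2011 of the 29838 zones of set 1 and 1844 of the 26025 zones of set 2. The rule uses no measured value, but it was set with earlier results of these data known. Chromosome 11 held 1359 zones of set 1 and 1245 of set 2, and chromosome 19 held 652 and 599. The remaining 17 autosomes, with 25860 and 22401 zones, served as the comparison. Chromosomes 11 and 19 are known as gene-dense, but this property was taken as background and not measured. The zones are on GRCm39 and the available gene annotation is on GRCm38.p6, so no zone is assigned a gene, promoter or sequence.

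The study used E14tg2a mouse embryonic stem cells. All 4 samples carried Tet-OsTIR1::Rosa26(bi) and mAID-RNaseh2a::puroR(bi), a degron-tagged RNaseh2a. Of these, 2 samples were this parent line and 2 also carried Pole1-M630F(bi). No expression values were analysed here, so neither the cell type nor the loss of RNaseh2a was checked. All cells received doxycycline and auxinole for 24 h, then doxycycline and IAA for 12 h, a treatment meant to degrade the tagged protein. Each list is named for a set, as are the libraries of replicate 1 and replicate 2. The sources used here do not say which libraries entered a list, so parent and mutant were not compared and the sets are given as 2 separate lists. Whether the replicates came from separate cultures is not stated, so the spread between sets may be technical.

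In mammalian cells DNA replication starts at many dispersed places within broad initiation zones, and any one of them is used in only some of the cells that pass through S phase. Forks leave a zone in both directions. DNA polymerase ε, whose catalytic subunit is Pole1, copies mainly the leading strand, so the strand on which it works changes at an initiation zone. The M630F form inserts more ribonucleotides than the normal enzyme, and without RNase H2, of which RNaseh2a is the catalytic subunit, these stay in the DNA and can be mapped. In mouse cells, gene-rich parts of the genome are known to replicate early in S phase.

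The first question was whether chromosomes 11 and 19 hold more initiation zones than the other autosomes. They did not do so in both sets. Zone density was counted between the outermost zones of both sets, a span of 118.752 Mb on chromosome 11 and 58.244 Mb on chromosome 19, the shortest autosome. Set 1 had 11.4 zones per Mb on chromosome 11 and 11.2 on chromosome 19, against 11.6 ± 0.296 (SD over 17 autosomes). Set 2 had 10.5 zones per Mb on chromosome 11 and 10.3 on chromosome 19, against 10.1 ± 0.189. Both chromosomes thus lay below the mean of the others in set 1, where chromosome 19 had the lowest density of all 19 autosomes. Both lay above it in set 2, where chromosome 11 had the highest. Averaged over the sets, chromosomes 11 and 19 differed from the others by 0.000670 zones per Mb (exact permutation p = 0.994).

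Each of 8 measures was tested in this way, by a two-sided exact permutation test over 19 autosomes that compares the mean of chromosomes 11 and 19 with the mean of the other 17. There are 171 ways to pick 2 of 19 chromosomes, so the smallest p is 0.00585. The chromosomes are parts of one genome and not replicates of the cells. After Benjamini-Hochberg adjustment over the 8 measures, none passed 0.05, and the lowest adjusted exact permutation p was 0.561. Before adjustment the lowest was 0.0819, for covered length. A test with 2 chromosomes on one side cannot show that they are like the rest.

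Zones on chromosomes 11 and 19 were slightly wider than the mean of the other autosomes in both sets, by less than could be told from the spread between chromosomes. The median width in set 1 was 20 kb on chromosome 11 and 20.5 kb on chromosome 19, against 18.6 kb ± 1.06 elsewhere. In set 2 it was 23 kb and 24 kb, against 22.7 kb ± 1.36. Chromosome 19 had the widest median of all autosomes in set 1 and shared the next place after chromosome 5 in set 2. The difference over both sets was 1.23 kb (exact permutation p = 0.140, adjusted p = 0.561). The interquartile range of width was 6 to 44.5 kb on chromosome 11 and 5 to 47 kb on chromosome 19 in set 1, and 7 to 51 kb on both in set 2.

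The shift in width of set 1 came with more zones over 40 kb and fewer narrow ones. Chromosome 11 had 390 zones over 40 kb (28.7%) and chromosome 19 had 192 (29.4%), the highest shares of all autosomes, where the others had a mean of 26.0% ± 1.41. Per Mb, set 1 held 3.28 such zones on chromosome 11 and 3.30 on chromosome 19, against 3.03 ± 0.141. Zones of up to 40 kb numbered 8.16 and 7.90 per Mb, against 8.61 ± 0.336, the lowest values of the 19 autosomes. Set 2 differed in the share of wide zones and in the narrow zones. Zones over 40 kb made up 33.2% of the zones on chromosome 11 and 32.7% of those on chromosome 19, against 33.2% ± 1.37. Per Mb they numbered 3.48 and 3.365, against 3.34 ± 0.107, so this value was above the mean of the others in set 2 too. Zones of up to 40 kb were also above the mean of the others, at 7.01 and 6.92 per Mb against 6.73 ± 0.242.

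Zones of a single 1 kb bin were the narrowest class in both lists. In set 1 they made up 10.01% of zones on chromosome 11, the lowest share of the autosomes, and 11.8% on chromosome 19, against 11.5% ± 0.730 elsewhere. In set 2 the shares were 9.64% and 7.51%, against 10.3% ± 1.19, and here chromosome 19 was lowest. At the other end, zones over 100 kb numbered 29 on chromosome 11 and 16 on chromosome 19 in set 1, and 50 and 25 in set 2, with shares within 1 SD of the other autosomes.

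**Figure D1:**
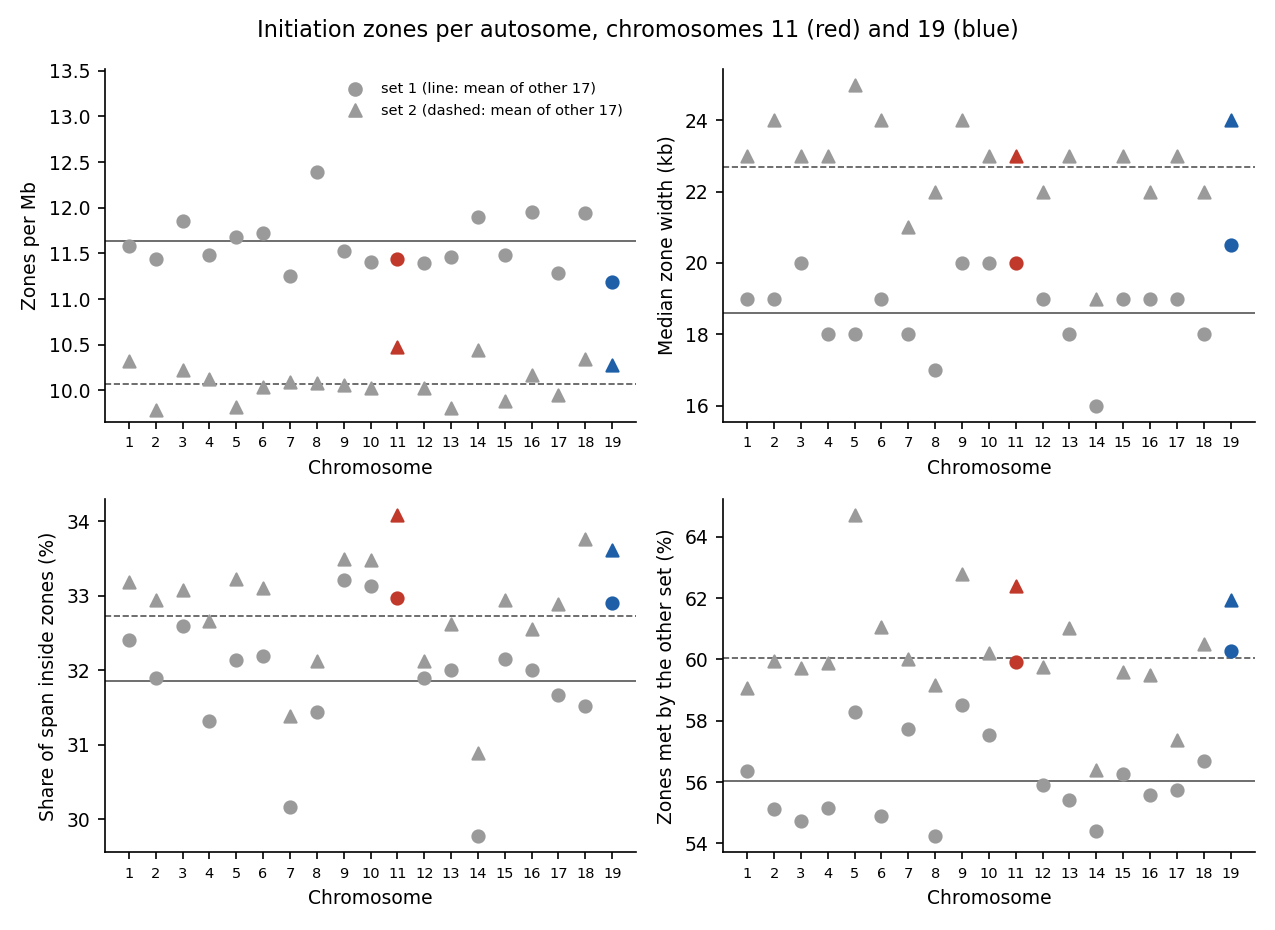
Zones per Mb, median zone width in kb, share of the span inside zones in percent and share of zones met by the other set in percent, for each of the 19 autosomes; circles are set 1, triangles set 2, and the solid and dashed lines are the means of the other 17 autosomes in set 1 and set 2. The axes do not start at 0. Chromosomes 11 (red) and 19 (blue) lie below the line for density in set 1 and above it in set 2, and above the lines for the other 3 measures.

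**Figure D2:**
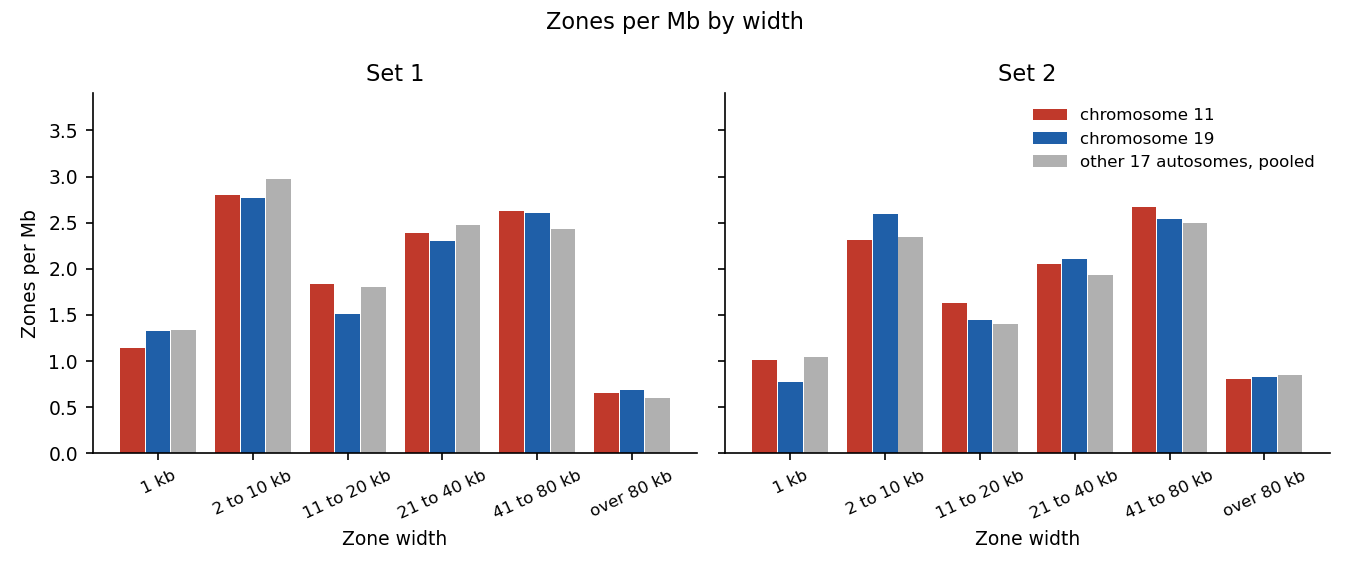
Zones per Mb (y axis, from 0) in 6 classes of zone width for chromosome 11, chromosome 19 and the other 17 autosomes pooled, in set 1 and set 2. The bars of chromosomes 11 and 19 are taller than the grey bars for 41 to 80 kb in both sets, by a larger margin in set 1 (2.63 and 2.61 against 2.43 per Mb) than in set 2 (2.67 and 2.54 against 2.497 per Mb).

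Initiation zones filled a little more of chromosomes 11 and 19 than of the average autosome. In set 1 zones covered 39.1 Mb or 33.0% of chromosome 11 and 19.2 Mb or 32.9% of chromosome 19, against 31.9% ± 0.882 elsewhere. In set 2 they covered 40.5 Mb or 34.1% and 19.6 Mb or 33.6%, against 32.7% ± 0.750. Chromosome 11 had the highest covered share of all autosomes in set 2 and chromosomes 9 and 10 exceeded it in set 1. The difference of 1.10 percentage points over both sets lay within the range that other pairs of chromosomes gave (exact permutation p = 0.0819, adjusted p = 0.561).

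Neighbouring zones were spaced much as elsewhere. Midpoints lay a median of 79.2 kb apart on chromosome 11 and 82 kb on chromosome 19 in set 1, against 77.1 kb ± 2.97, and 89 kb and 90 kb in set 2, against 90.1 kb ± 2.40. The difference was 1.50 kb (exact permutation p = 0.351, adjusted p = 0.702). The longest distance between neighbouring midpoints was 375.5 kb on chromosome 11 and 324.5 kb on chromosome 19 in set 1, and 400 kb and 334 kb in set 2. On the other autosomes it ran from 308 to 2108 kb in set 1 and from 386 to 3272 kb in set 2, so that chromosome 19 had the lowest value of all in set 2.

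No stretch of 500 kb or more was free of zones in both sets on either chromosome. The longest such interval of chromosome 11 ran from 49163000 to 49418000 (256 kb) and that of chromosome 19 from 28299000 to 28503000 (205 kb). Only chromosome 3, at 194 kb, had a shorter longest interval than chromosome 19. Of the other 17 autosomes, 12 had no stretch of 500 kb or more either. Intervals of 200 kb or more numbered 5 on chromosome 11 and 1 on chromosome 19, or 0.421 and 0.172 per 10 Mb, within the range of 0 to 1.2 on the other autosomes.

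The score attached to each zone is the authors' own and has no stated unit, so zones were ranked within their set. The median zone of chromosome 19 stood at percentile 52.7 of the autosomal zones in set 1, the highest of the 19 autosomes, and at 52.0 in set 2, second to chromosome 9. Chromosome 11 was close to the middle, at 50.5 in set 1 and 49.3 in set 2, against 49.9 ± 1.39 and 50.1 ± 1.46 elsewhere. The difference of both chromosomes from the others was 1.12 percentile points (exact permutation p = 0.269, adjusted p = 0.702). Scores summed per Mb, with the mean of the autosomes set to 1, were 0.992 and 0.995 on chromosome 11 in sets 1 and 2 and 1.02 in both sets on chromosome 19. Their difference from the others was 0.00849 (exact permutation p = 0.795, adjusted p = 0.909).

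Strong zones were about as frequent on both chromosomes as in the whole lists. By definition 10% of autosomal zones had a score among the highest 10% of their set, at or above 59.2 in set 1 and 75.2 in set 2. In set 1 these were 135 zones of chromosome 11 (9.93%) and 68 of chromosome 19 (10.4%), and in set 2 they were 110 (8.83%) and 61 (10.2%). Both chromosomes are therefore near the 10% background, with chromosome 11 at 1.14 and 0.926 such zones per Mb and chromosome 19 at 1.17 and 1.05. Score rose with width: the rank correlation was 0.946 and 0.954 over the zones of chromosome 11 and 0.95 in both sets over those of chromosome 19. These correlations describe zones of 1 list and carry no p-value.

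The highest score of chromosome 11 in set 1 was 189.1, in a zone of 145 kb from 108196000 to 108340000, and in set 2 it was 242.7, in a zone of 162 kb from 48627000 to 48788000. They lay at different places. Chromosome 19 had its highest score at 1 place in both sets: 186.6 from 31006000 to 31143000 in set 1 and 229.5 from 31022000 to 31190000 in set 2. The zone of set 2 was also the widest of chromosome 19 in that set, at 169 kb. The widest zone of chromosome 11 spanned 53601000 to 53793000 (193 kb) in set 1 and 43485000 to 43655000 (171 kb) in set 2, and in set 1 chromosome 19 was widest from 11899000 to 12071000 (173 kb). None of the widest zones of chromosome 11 was its strongest.

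The next question was how far the sets place zones at the same positions on these chromosomes. With at least 1 shared bin, 814 zones of set 1 on chromosome 11 (59.9%) and 393 on chromosome 19 (60.3%) met a zone of set 2, against 56.3% of all autosomal zones. In the other direction 777 zones of set 2 on chromosome 11 (62.4%) and 371 on chromosome 19 (61.9%) met set 1, against 60.2%. In set 1 these were the highest shares of the 19 autosomes, where the others ran from 54.2% to 58.5%. The mean over both sets exceeded that of the other autosomes by 3.10 percentage points (exact permutation p = 0.0175). This test was not among the 8 above but one of 33 added after values per chromosome were seen, and adjusted over those 33 the exact permutation p did not pass (adjusted p = 0.145). Covered length, which makes a meeting more likely, was also above the mean of the others, as given above, and its part in the difference was not tested.

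Stricter matching gave smaller differences. A reciprocal overlap of at least 50% was met by 271 pairs on chromosome 11 and 130 on chromosome 19, 19.9% of the set 1 zones of each, against 17.9% ± 1.44 elsewhere. As a share of set 2 zones this was 21.8% and 21.7%, against 20.6% ± 1.54. Over these pairs the scores of the sets had a rank correlation of 0.6805 on chromosome 11, the lowest of the 19 autosomes. Chromosome 19 had 0.739, and the others had 0.731 ± 0.0231. The midpoints of a pair lay a median of 10 kb apart on chromosome 11, the largest value of the 19. On chromosome 19 it was 8.5 kb, against 8.84 kb ± 0.775 elsewhere. These values within pairs were not tested. With midpoints within 10 kb, 26.7% of set 1 zones on chromosome 11 and 28.2% on chromosome 19 had a partner, against 25.0% ± 1.60. For set 2 zones the shares were 29.2% and 30.55%, against 28.8% ± 1.64, so chromosome 11 was near the mean of the others. The share of the span covered in both sets was 17.3% on chromosome 11 and 17.2% on chromosome 19, against 16.2% ± 0.757. Divided by the product of the covered shares of the sets, which takes covered length into account, the agreement was 1.54 on chromosome 11 and 1.56 on chromosome 19. The other autosomes had 1.56 ± 0.0372, a difference of -0.00859 (exact permutation p = 0.784, adjusted p = 0.909).

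Zones that met the other set were wide and zones that did not were narrow. On chromosome 11 the median width was 36 kb for met and 8 kb for unmet zones of set 1, and 39 kb against 8 kb in set 2. On chromosome 19 it was 37 kb against 7 kb and 40 kb against 8 kb. Width by itself raises the chance of meeting a zone of the other list, so these medians describe the classes and were not tested. All strong zones of set 2 on both chromosomes met set 1. In set 1 all but 1 strong zone on each did (99.3% on chromosome 11 and 98.5% on chromosome 19). Over all autosomes 98.8% of the strong zones of set 1 and 99.3% of those of set 2 were met, so these shares are near the background. The zones not met ran from 42327000 to 42385000 on chromosome 11, with a score of 59.3, and from 40602000 to 40655000 on chromosome 19, with 66.7.

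Zones strong in both sets marked a sparse set of sites. They formed 65 overlapping pairs on chromosome 11 and 36 on chromosome 19, or 0.547 and 0.618 per Mb, against 0.616 ± 0.0869 elsewhere. The partners of a pair had midpoints a median of 15 kb apart on chromosome 11 and 19 kb on chromosome 19, against a mean of 14.0 kb ± 2.23. Along the chromosome they lay a median of 1012.5 kb apart on chromosome 11 and 1046.5 kb on chromosome 19. Each chromosome also had a long stretch with no such pair, from 93884000 to 103307000 on chromosome 11 (9424 kb) and from 46328000 to 55177000 on chromosome 19 (8850 kb). These ranked 4 and 6 in length among the longest stretches of the 19 autosomes.

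The best-ranked pair of chromosome 19 was that at 31006000, named above, which was second of all autosomal pairs by mean rank. It was followed by the pair of a set 1 zone from 12662000 to 12746000, scored 138.1, and a set 2 zone from 12681000 to 12844000, scored 200.01. After it came the pair of 55172000 to 55271000 (136.1) and 55178000 to 55301000 (166.5). On chromosome 11 the best pair joined 48643000 to 48808000 in set 1, with a score of 155.8, to the strongest zone of set 2 on that chromosome. The next pairs of chromosome 11 joined 10257000 to 10329000 (131.3) to 10248000 to 10316000 (169.0), and 33434000 to 33560000 (158.3) to 33423000 to 33557000 (144.5). The zones of these 6 pairs had midpoints 7 to 58.5 kb apart.

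The local profile was then followed in windows counted from the first zone, 118 windows of 1 Mb on chromosome 11 and 58 on chromosome 19. The score of each zone was spread evenly over its bins and summed per window, and the mean of all autosomal windows of a set was put at 1. With the mean of both sets, windows of chromosome 11 ran from 0.512 to 1.76 with a median of 0.953, and those of chromosome 19 from 0.482 to 1.54 with a median of 1.02. The spread of summed score between these windows was close to that of the other autosomes, with an SD of 0.263 and 0.267 against a mean of 0.261 ± 0.0212. Covered share varied less between these windows, with an SD of 4.22 and 4.17 percentage points against 5.38 ± 0.968. That difference did not pass (exact permutation p = 0.0760, adjusted p = 0.208 over the 33 measures). Both sets were above the mean in 56 of the 176 windows, both below in 64, and on different sides in 56. Of the 2390 autosomal windows the same counts were 821, 862 and 707, a similar division.

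Windows that stood out in both sets were as frequent as elsewhere. A window was called high or low when it was among the highest or lowest 10% of autosomal windows in both sets. High windows numbered 5 on chromosome 11 and 3 on chromosome 19, or 4.55% of their windows together, against 4.31% of all autosomal windows. Low windows numbered 3 on each, or 3.41% together, against 3.81%. Both shares are near the background.

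The strongest window of chromosome 11 lay from 28051000 to 29050999, at 1.64 times the mean in set 1 and 1.89 times in set 2. It held 8 zones in each set, of which 4 in set 1 and 3 in set 2 were strong. The windows from 83051000 to 84050999 (1.56 times, mean of the sets) and from 33051000 to 34050999 (1.52 times) followed. In the latter a single zone, the pair at 33434000, carried 42.3% of the score in set 1 and 38.7% in set 2. Here the scores of all zones with their midpoint in the window were added up whole, not spread over bins. On chromosome 19 the strongest windows began at 55060000 (1.54 times), 60060000 (1.48 times) and 12060000 (1.45 times, but 1.19 times in set 1). Counted in the same way, the pair named above gave 51.5% of the score of that last window in set 1 and 45.3% in set 2.

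The weakest windows held at least as many zones as the median window. On chromosome 11 the window from 99051000 to 100050999 had 0.454 and 0.570 times the mean score in sets 1 and 2, with 12 zones in each set and none of them strong. The window from 24051000 to 25050999 had 0.626 and 0.418 times, with 15 and 12 zones, and that from 89051000 to 90050999 had 0.445 and 0.608 times, with 16 and 13 zones. On chromosome 19 the window from 5060000 to 6059999 was weakest, with 0.534 and 0.430 times the mean and 15 and 16 zones. Its neighbour from 6060000 to 7059999 had 0.586 and 0.571 times with 13 zones in each set. The window from 35060000 to 36059999 had 0.630 and 0.388 times with 14 in each. The mean number of zones per window of 1 Mb over both sets had a median of 11 on chromosome 11 and 10.5 on chromosome 19. Apart from the window at 89051000, with 1 strong zone in set 2, these 6 windows had no strong zone in either set.

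**Figure D3:**
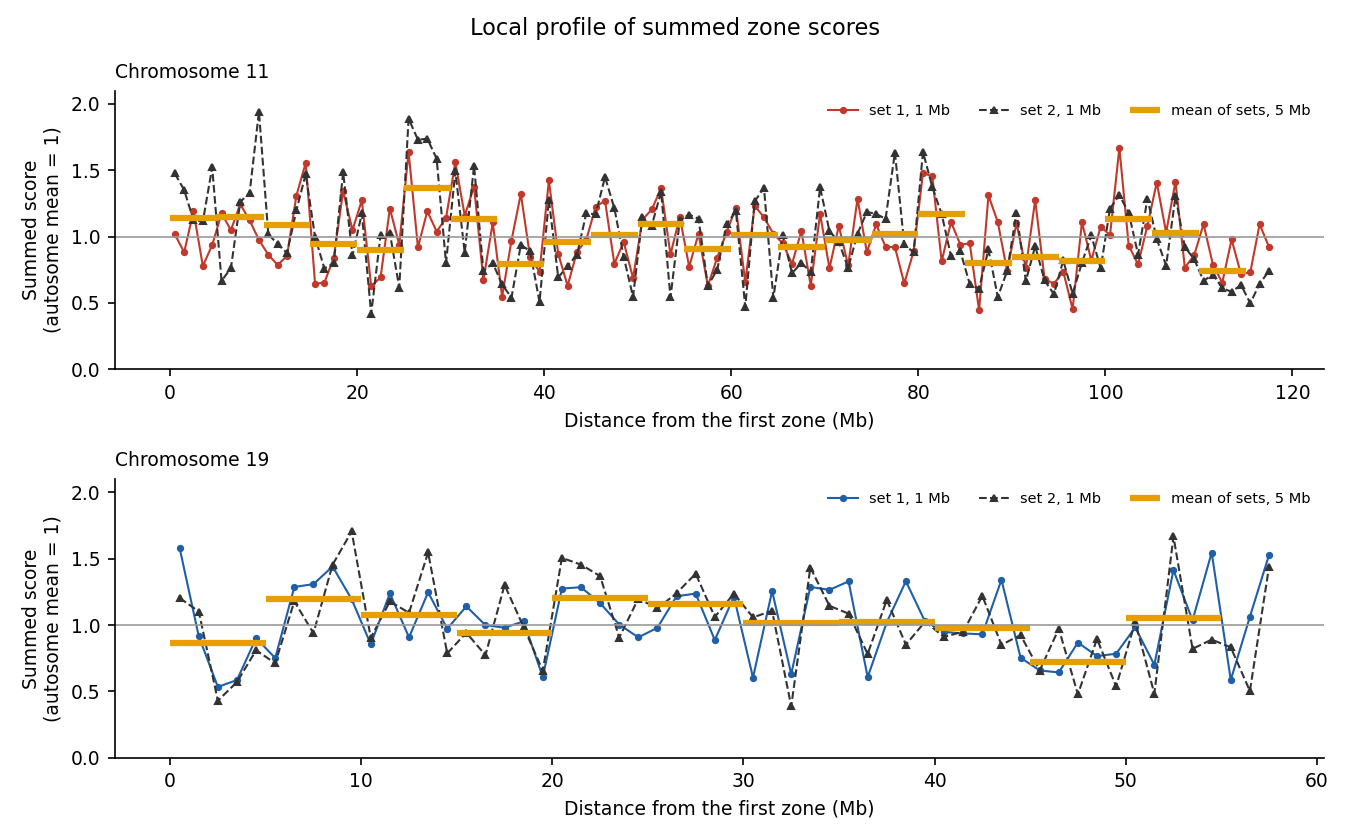
Summed zone score per window along chromosomes 11 and 19 (y axis, mean of the autosomal windows of each set = 1) against distance from the first zone in Mb. Solid coloured lines with circles are set 1 and dashed dark lines with triangles set 2 in windows of 1 Mb, and thick orange bars are the mean of the sets in windows of 5 Mb. Most bars lie between 0.8 and 1.2, and the highest on chromosome 11, at 1.36, starts 25 Mb from the first zone.

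The profile was also followed in windows of 5 Mb, 23 on chromosome 11 and 11 on chromosome 19. Summed scores of neighbouring windows had a Pearson correlation of 0.0474 on chromosome 11 and -0.0493 on chromosome 19, against 0.0399 ± 0.172 elsewhere. The runs of windows given below were picked as the longest, with their values in view. The highest window of chromosome 11, from 28051000 to 33050999, had 1.18 times the mean score in set 1 and 1.55 times in set 2, with 43 and 38 zones. The lowest, from 113051000 to 118050999, had 0.845 and 0.642 times with 60 and 63 zones, although zones covered 34.2% and 34.5% of it. From 88051000 to 103050999, 3 windows in a row were below the mean in both sets, at 0.798, 0.846 and 0.815 times, with 59.5 to 63 zones each as a mean of the sets. This run holds most of the 9424 kb without a pair strong in both sets. The window with the most zones as a mean of the sets, from 38051000 to 43050999, held 66 and 61 at 0.792 times the mean score. In set 1 alone the window from 13051000 to 18050999 held the most, 68, at 1.07 times the mean. In set 2 alone that from 88051000 to 93050999 held the most, 65, at 0.687 times.

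On chromosome 19 the highest window of 5 Mb ran from 23060000 to 28059999, at 1.13 and 1.29 times the mean with 48 and 45 zones. It opened a run of 3 windows above the mean in both sets, up to 38059999, at 1.21, 1.16 and 1.02 times as means of the sets. The window after it was at 1.06 times in set 1 and 0.986 times in set 2. The lowest window, from 48060000 to 53059999, was also the one with the most zones, 69 in set 1 and 64 in set 2. It had 0.743 and 0.708 times the mean score, zones covered 28.5% and 29.4% of it, and the median zone was 12 kb and 18.5 kb wide. It lies inside the 8850 kb without a strong pair.

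Each chromosome was also cut into 3 equal parts. The part farthest from the centromere, which lies at the low-coordinate end of these chromosomes, had the smallest share of strong zones on both chromosomes in both sets. On chromosome 11 strong zones were 11.2% of zones in the first part, 10.2% in the middle and 8.46% in the last in set 1, and 12.0%, 9% and 5.72% in set 2. On chromosome 19 they were 12.7%, 12.4% and 6.52% in set 1, and 10.99%, 14.0% and 6.31% in set 2. The other autosomes fell less from first to last part on average, from 10.5% ± 1.75 to 9.60% ± 1.83 in set 1 and from 11.3% ± 2.30 to 8.77% ± 2.33 in set 2. The difference between these falls was not tested.

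Windows with more zones had lower summed scores. In windows of 1 Mb the rank correlation of zone number with summed score, both as means of the sets, was -0.662 on chromosome 11 and -0.678 on chromosome 19. These were the most negative values of the 19 autosomes, where the others ran from -0.583 to -0.213 with a mean of -0.416 ± 0.111. In windows of 5 Mb it was -0.694 and -0.957, against -0.474 ± 0.221, with chromosome 19 lowest and chromosomes 15 and 18 also below chromosome 11. The difference in 1 Mb windows had an exact permutation p of 0.00585, the smallest possible, and an adjusted p of 0.129 over the same 33 measures, so it did not pass. Windows share zones at their edges and number and score come from the same list, so the correlations themselves carry no p-value. One alternative left out windows that meet an interval of 500 kb or more free of zones in both sets. The mean of the others was then -0.449 and the difference -0.221 (exact permutation p = 0.00585, adjusted p = 0.0994). With windows moved by 500 kb the difference was -0.153 (exact permutation p = 0.152, adjusted p = 0.308). These 2 p-values were adjusted over the window measures of their own setting. Why the correlations differ between chromosomes was not tested.

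**Figure D4:**
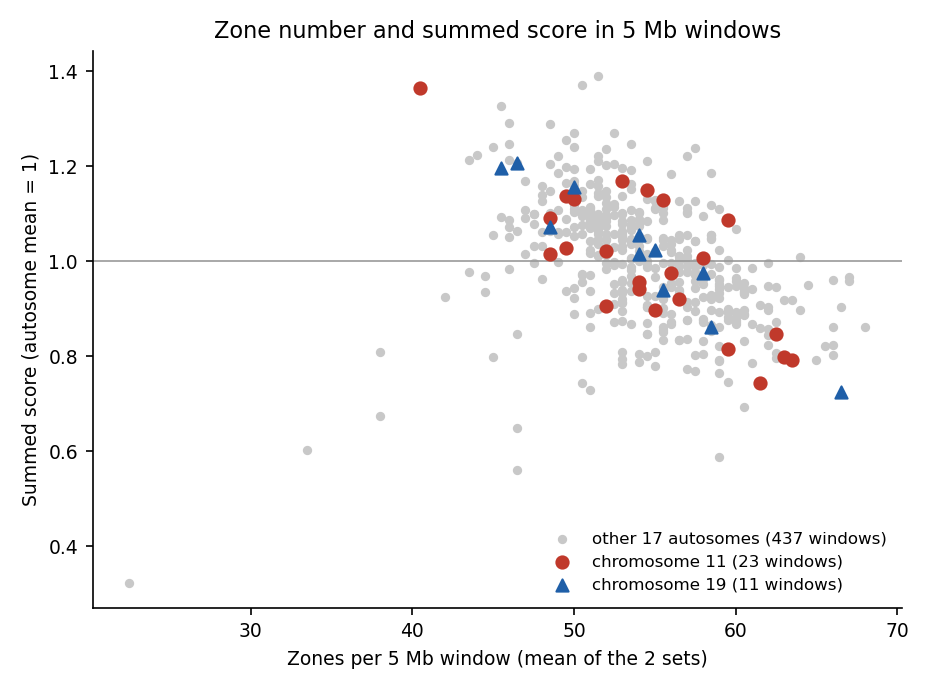
Summed score (y axis, autosome mean = 1) against the number of zones (x axis), both as means of the 2 sets, for each window of 5 Mb; red circles are the 23 windows of chromosome 11, blue triangles the 11 windows of chromosome 19 and grey points the 437 windows of the other 17 autosomes. The y axis does not start at 0. Scores fall as zone number rises, from 1.36 at 40.5 zones on chromosome 11 to 0.725 at 66.5 zones on chromosome 19, and the grey points with few zones and low scores have no counterpart on these chromosomes.

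The last question was whether the sets give the same profile along the chromosome. The rank correlation of summed scores between the sets over windows of 1 Mb was 0.577 on chromosome 11 and 0.611 on chromosome 19, against 0.572 ± 0.0666 elsewhere (difference 0.0220, exact permutation p = 0.608, adjusted p = 0.909). Over windows of 5 Mb it was 0.763 and 0.791, the highest values of the 19 autosomes, against 0.543 ± 0.150. This difference of 0.234 had an exact permutation p of 0.0468 and did not pass after adjustment over the 33 measures (adjusted p = 0.208). With windows moved by 500 kb it was 0.124 (exact permutation p = 0.175). The values rest on 23 and 11 windows.

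The number of zones per window also varied together in the sets. Over windows of 1 Mb the rank correlation was 0.379 on chromosome 11 and 0.323 on chromosome 19, again the highest of the autosomes, against 0.192 ± 0.0820 (exact permutation p = 0.0117, adjusted p = 0.129). This depended on where the windows start: moved by 500 kb, the mean of both chromosomes fell from 0.351 to 0.217, while that of the others was 0.205. Over windows of 5 Mb it was 0.556 and 0.577, against 0.285 ± 0.166 (exact permutation p = 0.0292, adjusted p = 0.193), and 0.608 against 0.258 as means with windows moved by 500 kb. Covered kb per window agreed no better on these chromosomes, with 0.369 and 0.223 in windows of 1 Mb against 0.392 ± 0.0813, and chromosome 19 had the lowest value.

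The sets differed least in zone number on these chromosomes. Set 1 had 0.960 more zones per Mb than set 2 on chromosome 11 and 0.910 more on chromosome 19, the smallest excesses of the 19 autosomes, where the others had 1.56 ± 0.272. The difference of -0.627 zones per Mb had an exact permutation p of 0.0117 and an adjusted p of 0.129. None of the 33 measures passed after adjustment.

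Chromosome 19 is the shortest autosome, so length could move with these values. Over the 19 autosomes the Pearson correlation with span was -0.0210 for zones per Mb, 0.0166 for median width, -0.0986 for covered share and -0.206 for the agreement of 1 Mb sums. Over the other 17 autosomes alone these values were -0.0936, 0.246, 0.0757 and -0.156. For median score rank the correlation was -0.0480 over all 19 and 0.204 over the other 17. Spacing had -0.104 and 0.0413, summed score 0.05035 and 0.141, and agreement of covered bins 0.02645 and 0.02656. Apart from agreement of 1 Mb sums, the correlations over windows were not set against span, so their link with length was not tested. All values with span describe chromosomes of the same lists and carry no p-value.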

How the data were processed

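Per the labels' protocols, alkali was used to cleave genomic DNA of the 4 samples and gel-cut fragments were sequenced. The submitters' processing notes name Bowtie2 and the GRCm39 build. The Bowtie2 version is not stated there, and how zones were called, which libraries were pooled and what the score means were not given in the sources used here. The 2 deposited lists have no header and hold the place of each zone with a score that the authors gave it. Positions are whole kb and were read as the first and last 1 kb bin of a zone. The lists hold no read counts and depth is unknown, so no interval for counting error is given. Values per chromosome were averaged over the sets before the exact permutation test, and p-values were adjusted by Benjamini-Hochberg. The test, density, median width, covered share and agreement of covered bins were checked on simulated data with known answers. The other measures were not checked in this way. Members, lists and the 8 measures were chosen with earlier results of these data known, and 33 further measures, some of them planned as descriptions or alternatives, were tested after values per chromosome were seen. Named regions are, on each chromosome, the 3 best-ranked overlapping pairs, the widest zones, the 3 highest and 3 lowest windows of 1 Mb, the highest, lowest and closest-packed window of 5 Mb and the longest zone-free interval. The strongest zone of each set, the strong zones not met, the longest stretch without a strong pair and the runs of windows were picked with their values in view. Alternatives changed the sets, chromosomes, zones, span, windows and reading of the last position. Python 3.11.15, NumPy 2.4.6, pandas 2.3.3 and Matplotlib 3.10.9 were used.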

Additional observations from a re-analysis of the deposited data

How the results depend on the processing

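Values here are chromosomes 11 and 19 minus the other autosomes. No alternative brought any of the 8 measures past 0.05 after adjustment, and covered share (0.897 to 1.23 points) and median width (0.515 to 1.66 kb) kept their direction in all 10 alternatives run for each. The sign turned in 14 of 84 alternative values, counted over these 8 measures and the share of zones met. All 14 were values of density, spacing, score or agreement. Density was -0.313 to 0.314 zones per Mb with either set left out, -0.112 for chromosome 19 alone, -0.0242 without the first and last 5 Mb and -0.0502 with intervals of at least 500 kb that hold no zone taken out. Spacing was -0.559 to 3.57 kb with either set left out, -0.680 as plain ends or without zones of 1 bin and -0.162 between zone edges. For chromosome 11 alone the score rank was -0.0803 and the summed score -0.00564. The agreement of covered bins was 0.000862 for chromosome 19 alone and 0.00476 for scores at or above the median. The agreement of 1 Mb sums was -0.000317 against autosomes 9 to 18 and -0.0963 for covered kb. For each of these sign changes the cause was not tested. The share of zones met was 3.10 points higher, 1.61 by reciprocal overlap, 1.76 by midpoints and 2.14 to 4.06 with either set left out. With 1 chromosome in place of 2 the smallest p is 0.0556, so that alternative cannot pass. No paired analysis was possible because neither list gives separate values for the parent and the mutant samples.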
